A study of Mus musculus with 18 samples.

Results

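A set of 9 genes (the members) that mark bone-forming cells were examined in 18 tumors grown from K7M2, a mouse osteosarcoma line derived from a Balb/c animal. The members were taken by name from the 20878 genes of the expression matrix. They were the transcription factors Runx2 and Sp7, the phosphatase Alpl, the matrix genes Sparc, Spp1, Ibsp and Bglap, and Dmp1 and Phex, which act late in the lineage and in osteocytes. All 9 members were found in the matrix. The K7M2 cells carried a lentiviral shRNA, either against Atrx (ATRX-KD) or a control sequence (ATRX-CT). They were grafted into mice of 6 to 8 weeks, either immunocompetent Balb/cJ mice or NSG mice (NOD.Cg-Prkdc scid Il2rg tm1Wjl/SzJ), which lack T, B and NK cells. This gave 4 groups: 4 Balb/c ATRX-CT tumors, 4 Balb/c ATRX-KD tumors, 5 NSG ATRX-CT tumors and 5 NSG ATRX-KD tumors. Each tumor came from its own mouse and is named by its mouse number. Mice of 1 cage received the same kind of cells, so cage and shRNA cannot be told apart.

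Osteoblasts arise from mesenchymal progenitors. Runx2 commits a progenitor to the bone lineage, and Sp7 (osterix), which acts downstream of it, is needed for the step to a matrix-making osteoblast. The matrix is mostly type I collagen with bound proteins such as osteonectin (Sparc), osteopontin (Spp1), bone sialoprotein (Ibsp) and osteocalcin (Bglap), and mineral is laid down once the alkaline phosphatase Alpl has removed the inhibitor pyrophosphate. Cells that become buried in this matrix turn into osteocytes, which make the matrix protein Dmp1 and the endopeptidase Phex, both known for their part in phosphate balance.

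Sequencing depth was estimated at 15150000 to 25200000 fragments per tumor. Atrx itself lay at 10.3 to 26.0 FPKM (fragment counts scaled to transcript length and library size) in Balb/c ATRX-CT and 7.88 to 21.5 in Balb/c ATRX-KD tumors, and at 11.6 to 24.4 in NSG ATRX-CT and 8.42 to 16.4 in NSG ATRX-KD tumors, so the groups overlapped in both hosts. In NSG ATRX-KD only mouse 27 overlapped, and the other 4 tumors (8.42 to 8.88) lay below every NSG ATRX-CT tumor. Atrx has a transcript of 10244 nt, and libraries differed in how the level of all genes rose with transcript length. Mouse 27 had the steepest rise in its group. The 4 highest Balb/c values of Atrx were in the 4 Balb/c libraries with the steepest rise. The part of this library property was not tested. The difference of Atrx in log2 (FPKM + 1) was -0.34 in Balb/c mice (SE 0.36, adjusted p = 0.999 in limma) and -0.74 in NSG mice (SE 0.22, adjusted p = 0.061 in limma), and neither passed the test used below. The study reports loss of ATRX protein in the ATRX-KD cell lines, K7M2 among them, by western blot. Tumor RNA, unlike those lines, also holds RNA of host cells. T cell genes matched the host labels, with a mean log2 (FPKM + 1) over 10 genes of 1.80 to 2.55 in Balb/c and 0.13 to 0.36 in NSG tumors. Y-linked genes averaged 2.62 to 3.04 over 4 genes in NSG ATRX-CT tumors, 1.90 to 2.37 in NSG ATRX-KD tumors, without overlap, and at most 0.0041 in Balb/c tumors. The study's methods give female mice, and a sex difference and a host difference cannot be told apart here.

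The bone label held for only some of the members. Over the 18 tumors, Spp1 had a median of 330 FPKM (lowest 180, highest 604) and Sparc a median of 240 FPKM (155 to 342). Phex followed with a median of 48.8 FPKM (17.5 to 67.1) and Runx2 with 4.94 FPKM (3.54 to 11.1). Since FPKM is a level per length of transcript, these genes could be ranked within a tumor. Spp1 lay above 97.9% to 99.3% of the 20878 genes, Sparc above 97.6% to 98.8%, Phex above 73.5% to 92.5% and Runx2 above 51.2% to 64.7%. Alpl was at 0.0512 to 0.662 FPKM (median 0.254), and the other 4 members, Sp7, Bglap, Ibsp and Dmp1, had medians of at most 0.0311 FPKM. The K7M2 tumors carried RNA of the early lineage factor, of 2 abundant matrix genes and of Phex, with the defining genes of the mature osteoblast at or near 0.

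**Figure D1:**
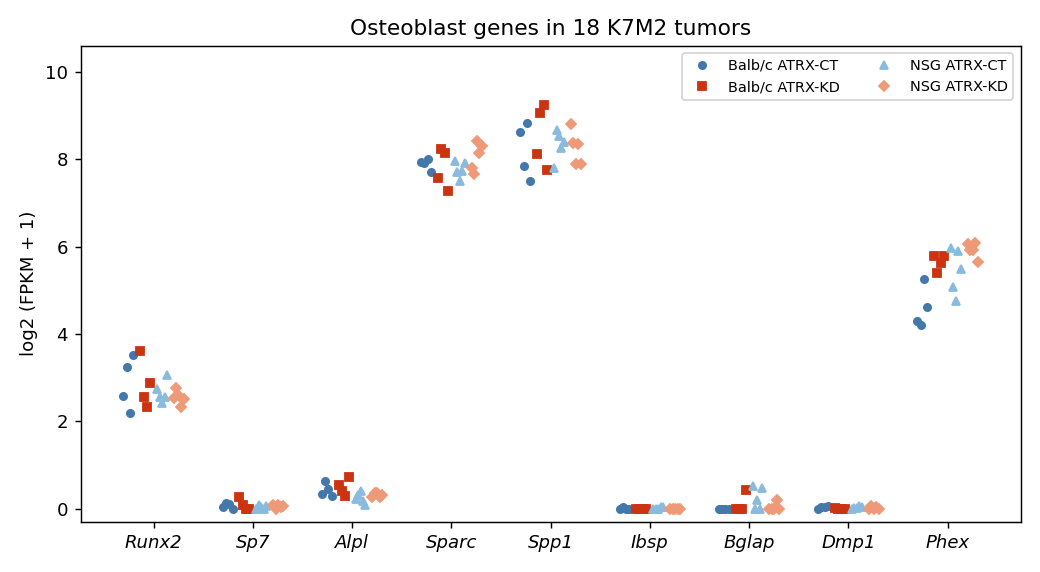
Level of each of the 9 members in log2 (FPKM + 1) on the vertical axis, with 1 point per tumor and the 4 groups by color and shape. Sparc and Spp1 lie between 7.28 and 9.24, Phex between 4.21 and 6.09, Runx2 between 2.18 and 3.60, and the other 5 members below 0.74.

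Runx2 protein acts by binding DNA near such genes, and the letters in front of the members are therefore given. The 250 bases before the transcription start were taken from RefSeq promoter windows of GRCm38.p6 for 8 of the 9 members (Sp7 was not matched). They were searched for the 6 letters TGTGGT, or ACCACA on the opposite strand, which RUNX proteins recognise. Among all 32851 windows searched, 14.0% held these letters. Of the members, Runx2, Bglap, Spp1 (the first of 2 windows) and Dmp1 (the second of 2 windows) held 1 match each. Alpl (in both of its 2 windows), Ibsp, Sparc and Phex held none. Members are listed here as genes and the 14.0% is a share of windows, so they are not compared. The 4 windows printed here are those of Runx2, of its abundant and its undetected matrix genes Spp1 and Bglap, and of Phex, the member with the largest difference in any of the comparisons. They read 5′ to 3′ on the strand of the gene, with the match in capitals.
Runx2, chr17:44814628-44814877, minus strand: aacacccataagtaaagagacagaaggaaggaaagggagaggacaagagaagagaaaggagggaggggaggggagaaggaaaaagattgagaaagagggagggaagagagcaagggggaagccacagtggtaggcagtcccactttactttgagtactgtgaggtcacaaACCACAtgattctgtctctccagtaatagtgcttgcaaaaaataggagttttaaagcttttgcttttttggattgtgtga
Spp1, chr5:104434861-104435110, plus strand: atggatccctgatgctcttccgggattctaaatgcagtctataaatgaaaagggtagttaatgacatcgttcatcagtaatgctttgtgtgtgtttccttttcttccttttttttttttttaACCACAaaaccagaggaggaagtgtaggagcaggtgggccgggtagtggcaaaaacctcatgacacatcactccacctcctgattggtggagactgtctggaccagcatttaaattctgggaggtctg
Bglap, chr3:88384467-88384716, minus strand: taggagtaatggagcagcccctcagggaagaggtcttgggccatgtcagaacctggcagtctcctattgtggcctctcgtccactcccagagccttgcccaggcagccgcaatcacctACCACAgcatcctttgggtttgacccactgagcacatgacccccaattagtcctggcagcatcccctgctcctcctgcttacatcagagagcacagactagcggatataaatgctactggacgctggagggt
Phex, chrX:157415287-157415536, minus strand: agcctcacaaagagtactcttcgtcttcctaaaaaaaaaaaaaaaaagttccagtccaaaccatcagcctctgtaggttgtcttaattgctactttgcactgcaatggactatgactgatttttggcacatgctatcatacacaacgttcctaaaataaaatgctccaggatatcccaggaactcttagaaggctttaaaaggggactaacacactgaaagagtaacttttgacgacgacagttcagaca
The match began 80 bases before the start in Runx2, 128 in Spp1 and 132 in Bglap. The Runx2 window was taken from a start inside the gene as quantified, which extends to position 44814797. Part of that window, with its match, thus lay within the gene, while the other printed windows lay outside theirs. Spp1, at 180 to 604 FPKM, and Bglap, at 0 in 13 of 18 tumors, thus both held the letters at a similar distance. A match describes the letters only and does not show a bound site.

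Among the transcription factors, Runx2 (mm10, chr17:44495987-44814797, minus strand, 8 transcripts) was detected in every tumor. In Balb/c ATRX-CT tumors it stood at 4.98 FPKM in mouse 41, 8.42 in mouse 43, 3.54 in mouse 44 and 10.5 in mouse 45. In Balb/c ATRX-KD tumors it stood at 11.1 FPKM in mouse 56, 4.86 in mouse 58, 4.01 in mouse 59 and 6.32 in mouse 60. The values of both Balb/c groups covered nearly the same range, with 1 tumor of each above 10 FPKM. The NSG tumors were closer together, at 5.72, 4.91, 4.36, 4.84 and 7.37 FPKM in ATRX-CT mice 1 to 5 and at 4.80, 5.81, 5.01, 4.04 and 4.70 FPKM in ATRX-KD mice 26 to 30. Runx2 overlaps Supt3, a gene on the opposite strand, and the library kit kept strand, although the strand setting of the quantification was not given in the sources used here.

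Sp7 (chr15:102357177-102366271, minus strand) was listed at 0 in 6 tumors and was at or below 3 estimated fragments in 15 of 18. It reached its highest value, 0.195 FPKM or 9.36 estimated fragments, in Balb/c ATRX-KD mouse 56, which also had the highest Runx2. With so few fragments, no difference in Sp7 between groups was detectable at this depth. The other bone lineage factors on the list were unequal as well. Cbfb, the partner that stabilises RUNX proteins on DNA, had a mean of 72.5 FPKM over the 18 tumors, Atf4 a mean of 343 FPKM and Twist1, which restrains Runx2 in progenitors, a mean of 31.1 FPKM. Dlx5 was at 0 in 12 tumors and Msx2 in 13, and both are homeodomain factors of bone-forming cells (these 5 genes were named after their values were seen).

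Alpl (chr4:137741731-137796384, minus strand), the tissue-nonspecific alkaline phosphatase, was present at trace level. It was at 0.218 to 0.557 FPKM in Balb/c ATRX-CT, 0.229 to 0.662 in Balb/c ATRX-KD, 0.0512 to 0.317 in NSG ATRX-CT and 0.200 to 0.289 in NSG ATRX-KD tumors. These values correspond to 1.98 to 31.5 estimated fragments, and 1 tumor was at or below 3. All 4 groups overlapped.

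Sparc (chr11:55394159-55420080, minus strand), the collagen-binding protein osteonectin, was the steadiest of the abundant members. Balb/c ATRX-CT tumors stood at 243, 240, 259 and 209 FPKM in mice 41, 43, 44 and 45, and ATRX-KD tumors at 190, 300, 280 and 155 FPKM in mice 56, 58, 59 and 60. In NSG mice 1 to 5 (ATRX-CT) Sparc was at 248, 208, 181, 212 and 240 FPKM, and in mice 26 to 30 (ATRX-KD) at 223, 202, 342, 282 and 315 FPKM. Of the 5 NSG ATRX-KD tumors, those of mice 28, 29 and 30 lay above every NSG ATRX-CT tumor, and the other 2 lay within their range. The same 3 tumors stood apart in fibroblast genes, with a mean log2 (FPKM + 1) over 10 genes of 3.49, 3.33 and 3.33 against 2.23 and 2.42 in mice 26 and 27. They also did so in 10 adipocyte genes, at 3.16, 2.06 and 2.29 against 0.85 and 0.69, and the part of either cell type in the Sparc level was not tested. Sparc and Spp1 are also made by fibroblasts, endothelial cells or macrophages, and in bulk tumor RNA fewer cells of a type and less RNA per cell cannot be told apart.

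Spp1 (chr5:104435111-104441053, plus strand), the phosphorylated glycoprotein osteopontin, varied most within groups. In Balb/c ATRX-CT tumors it was at 392 FPKM in mouse 41, 229 in mouse 43, 458 in mouse 44 and 180 in mouse 45. In Balb/c ATRX-KD tumors it was at 278 FPKM in mouse 56, 530 in mouse 58, 604 in mouse 59 and 216 in mouse 60. Both Balb/c groups were split into 2 high and 2 low tumors, and in each the low tumors were those with the highest Runx2. These 4 tumors (mice 43, 45, 56 and 60) were also the 4 Balb/c libraries in which the level of all genes rose most with transcript length, by 0.146, 0.191, 0.213 and 0.122 in log2 per doubling of length, against at most 0.0009 in the other 4. The part of this library property in the split was not tested. In NSG mice, ATRX-CT tumors 1 to 5 stood at 222, 406, 368, 306 and 337 FPKM and ATRX-KD tumors 26 to 30 at 447, 333, 235, 328 and 235 FPKM. Macrophage genes, whose cells also make osteopontin, were high throughout: all 12 listed genes were above 0 in every tumor, with a mean log2 (FPKM + 1) of 7.05 to 7.60 in Balb/c ATRX-CT, 6.81 to 7.53 in Balb/c ATRX-KD, 7.46 to 8.07 in NSG ATRX-CT and 6.98 to 7.57 in NSG ATRX-KD tumors. Their part in the Spp1 level was not tested.

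Bglap (chr3:88383495-88384466, minus strand), osteocalcin, was listed at 0 in 13 tumors and never exceeded 3 estimated fragments. Its highest value was 0.431 FPKM in NSG ATRX-CT mouse 1, where 3 fragments would correspond to 0.619 FPKM. It is also uncertain, since 50.0% of its 75-nt windows occur in Bglap2 or Bglap3, which themselves reached 0.822 and 0.285 FPKM at most. Ibsp (chr5:104299287-104311472, plus strand), bone sialoprotein, was listed at 0 in 15 tumors and at most at 0.0292 FPKM, under 1 estimated fragment. Other matrix genes of the bone list were abundant, among them Col1a1 with a mean of 164 FPKM and Col1a2 with a mean of 391 FPKM, the 2 chains of type I collagen (named after their values were seen). Fibroblasts also make this collagen. The 10 fibroblast genes averaged 1.99 to 2.64 in log2 (FPKM + 1) in Balb/c ATRX-CT, 2.16 to 2.41 in Balb/c ATRX-KD, 2.34 to 2.90 in NSG ATRX-CT and 2.23 to 3.49 in NSG ATRX-KD tumors.

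Spp1, Ibsp and Dmp1 are neighbours. With Dspp and Mepe they form the SIBLING cluster, a row of genes for acidic, integrin-binding proteins of bone and tooth, which spanned 270 kb of chromosome 5 from the start of Dspp to the end of Spp1. Only Spp1 of the 5 was expressed above 0.05 FPKM in any of the 18 tumors. Dmp1 (chr5:104202617-104214102, plus strand) was listed at 0 in 8 tumors and at or below 3 estimated fragments in all 18, Dspp was at 0 in 14 and Mepe at 0 in 17. The genes on either side were expressed, Sparcl1 with a mean of 12.4 FPKM and Pkd2 with a mean of 19.0 FPKM.

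**Figure D2:**
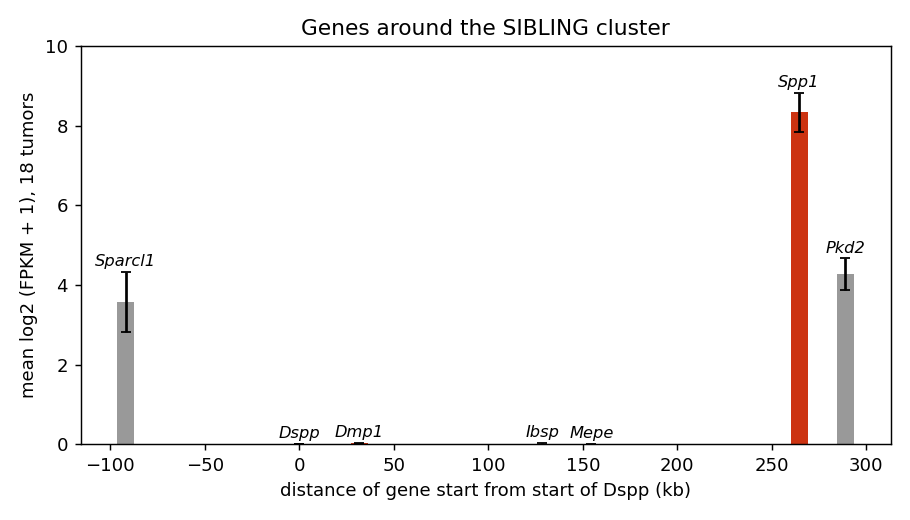
Mean log2 (FPKM + 1) over 18 tumors (bars from 0, error bars SD over tumors) of the SIBLING genes and their outer neighbours, with members in red. Genes are placed by the distance in kb of their lowest coordinate from that of Dspp, which for Sparcl1, on the minus strand, is not its transcription start. Spp1 stands at 8.33, while Dspp, Dmp1, Ibsp and Mepe are between 0.0021 and 0.020.

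Phex (chrX:157162075-157415286, minus strand, 22 exons), the membrane endopeptidase of osteoblasts and osteocytes whose loss causes X-linked hypophosphatemia, had the largest difference between groups. In Balb/c ATRX-CT tumors it stood at 18.8 FPKM in mouse 41, 17.5 in mouse 43, 37.5 in mouse 44 and 23.7 in mouse 45. In Balb/c ATRX-KD tumors it stood at 54.2 FPKM in mouse 56, 41.0 in mouse 58, 48.5 in mouse 59 and 54.5 in mouse 60. Every Balb/c ATRX-KD tumor was above every Balb/c ATRX-CT tumor, and the nearest pair was mouse 58 and mouse 44. In NSG ATRX-CT mice 1 to 5 Phex was at 61.9, 32.6, 26.0, 58.5 and 44.0 FPKM, and in NSG ATRX-KD mice 26 to 30 at 66.2, 59.3, 59.9, 67.1 and 49.2 FPKM. In NSG mice the groups overlapped, with 2 ATRX-CT tumors inside the range of ATRX-KD tumors. In order, the means were 24.4 ± 9.17 FPKM in Balb/c ATRX-CT (SD, n = 4), 44.6 ± 15.7 in NSG ATRX-CT (SD, n = 5), 49.5 ± 6.34 in Balb/c ATRX-KD (SD, n = 4) and 60.3 ± 7.18 in NSG ATRX-KD tumors (SD, n = 5). All Balb/c ATRX-KD tumors lay within the range of NSG ATRX-CT tumors, the neighbouring group in this order.

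**Figure D3:**
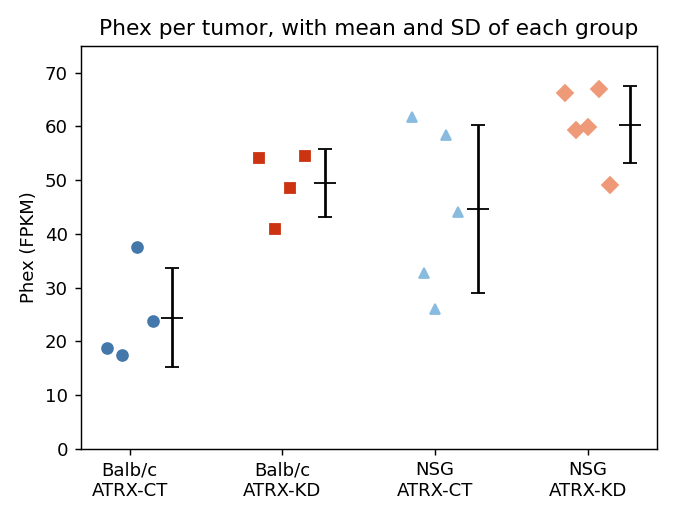
Phex in FPKM (linear vertical axis from 0) for each tumor of the 4 groups, with the mean and SD of each group in black beside its points. Balb/c ATRX-CT tumors lie at 17.5 to 37.5 and Balb/c ATRX-KD tumors at 41.0 to 54.5, without overlap, while NSG ATRX-CT tumors spread from 26.0 to 61.9.

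The first comparison asked how the members differed with the shRNA in immunocompetent hosts. The test was limma on log2 (FPKM + 1), run over every gene whose mean reached 0.1 FPKM. A gene was called when its FPKM + 1 changed 2-fold or more with an adjusted p under 0.05. For a gene of low level, such as Alpl, this takes a larger fold of FPKM itself. Of the 9 members, 5 passed the filter in Balb/c mice and 0 were called, where 0.0068% of all 14701 genes tested were called. At an unadjusted p under 0.05 there was 1 member, Phex, and 609 genes in all. Phex was 1.05 higher in ATRX-KD tumors in log2 (FPKM + 1) (SE 0.23, 95% interval 0.54 to 1.56, limma adjusted p = 0.413). An exact two-sided permutation test of its values gave p = 0.0286, the smallest that 4 against 4 tumors allow. Any gene whose groups do not overlap gives this value. Phex was the 1 member whose groups did not overlap, as was so for 3.18% of all genes tested. Its adjusted p ranged from 0.0661 to 0.58 over the other settings and from 0.147 to 0.932 when 1 tumor was left out.

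For the other members the Balb/c intervals were wide. Spp1 differed by 0.34 (95% interval -0.57 to 1.26), Runx2 by -0.04 (-0.83 to 0.75), Sparc by -0.09 (-0.59 to 0.42) and Alpl by 0.06 (-0.21 to 0.33), each in log2 (FPKM + 1) and each with a limma adjusted p of 0.999. The interval of Spp1 thus still held a doubling. Endothelial genes, markers of another cell type, moved with the Phex difference: 9 of the 10 had a higher mean in Balb/c ATRX-KD tumors, 0 were called, 0 were at 0 in all tumors, and their mean log2 (FPKM + 1) was 2.42 to 3.55 against 2.13 to 2.73. Adipocyte genes were higher in 10 of 10 (0.76 to 1.85 against 0.63 to 1.06), skeletal muscle genes lower in 10 of 10 (0.49 to 1.69 against 0.82 to 2.32) and keratinocyte genes lower in 9 of 10 (0.48 to 1.24 against 0.44 to 2.85), again with 0 called in each list. Their part in the result was not tested.

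In NSG hosts, the same comparison gave smaller differences for Phex. Of the 6 members that passed the filter, 0 were called, where 0.464% of 14654 genes tested were, and 1 (Phex) had an unadjusted p under 0.05, as did 3853 genes. Phex was 0.49 higher in ATRX-KD tumors (SE 0.22, 95% interval 0.02 to 0.97, limma adjusted p = 0.173), and with libraries weighted by their noise the value was 0.21. The exact two-sided permutation test of Phex gave p = 0.0794 in NSG mice. Sparc was 0.31 higher (SE 0.16, interval -0.03 to 0.65, limma adjusted p = 0.233), and 0.39 with weighted libraries (limma adjusted p = 0.0225), under 2-fold. Runx2 differed by -0.12 (-0.41 to 0.17) and Spp1 by -0.07 (-0.52 to 0.38), so that a doubling lay outside both intervals. Alpl differed by 0.08 (-0.07 to 0.24), on a scale that understates changes of so low a gene. Bglap passed the filter here, but every tumor was under 3 estimated fragments and no fold is given. Groups were apart for 0 members and for 7.5% of all genes tested. Of the endothelial genes, 9 of 10 again had the higher mean in ATRX-KD tumors (2.18 to 2.57 against 1.44 to 2.51), as did 10 of 10 fibroblast genes (2.23 to 3.49 against 2.34 to 2.90) and 10 of 10 adipocyte genes (0.69 to 3.16 against 0.78 to 1.34). The lower mean in ATRX-KD tumors was seen in 11 of 12 macrophage genes (6.98 to 7.57 against 7.46 to 8.07) and in 4 of 4 Y-linked genes. None of these list genes was called (0 in each list), and their part in the member values was not tested.

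The difference between the ATRX-KD effects of the 2 hosts was 0.55 for Phex (SE 0.33, 95% interval -0.15 to 1.26, limma adjusted p = 0.609), so a difference between the hosts was not shown by this fit. With weighted libraries it was 0.84 (limma adjusted p = 0.044), still under the 2-fold threshold. It was 0.41 for Spp1 (-0.55 to 1.37), 0.08 for Runx2 (-0.69 to 0.85), -0.40 for Sparc (-0.96 to 0.17) and -0.02 for Alpl (-0.30 to 0.26). In this test 0 of 5 members and 0 of 14803 genes were called (0% of all), with 0 members and 1527 genes at an unadjusted p under 0.05.

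**Figure D4:**
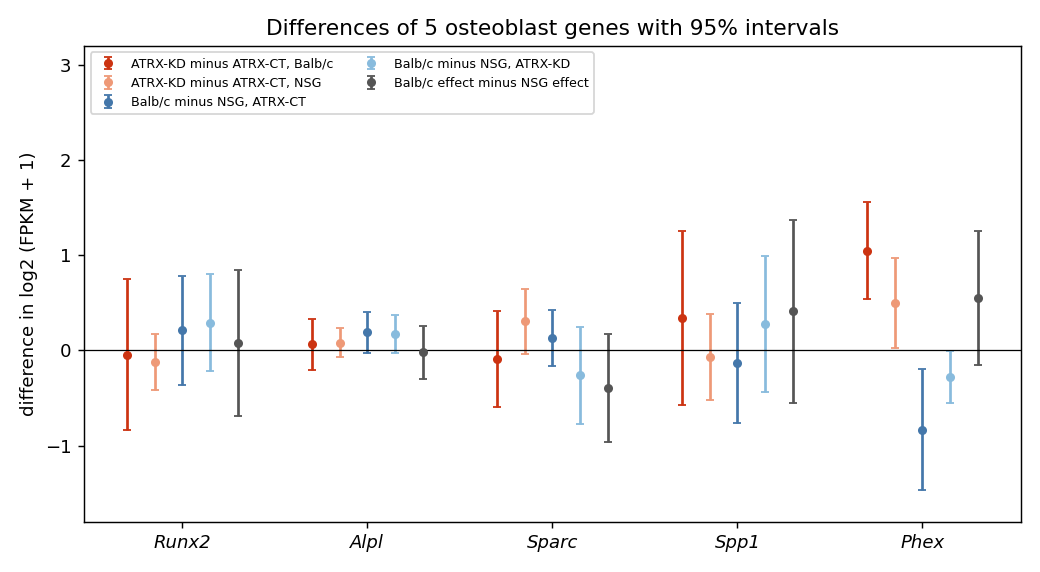
Differences in log2 (FPKM + 1) with 95% intervals from limma for 5 members that passed the filter, in 5 comparisons by color. The Phex interval lies above 0 for ATRX-KD against ATRX-CT tumors in both hosts (0.54 to 1.56 and 0.02 to 0.97) and below 0 for Balb/c against NSG hosts, and each interval of Runx2, Alpl, Sparc and Spp1 includes 0.

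The hosts were compared within each kind of cells. These comparisons use the same tumors as the ones above. Between ATRX-CT tumors, 0 of 6 members tested were called against 1.43% of 14828 genes, and 1 member (Phex) and 2866 genes had an unadjusted p under 0.05 in limma. Phex was lower in Balb/c than in NSG hosts by -0.83 (SE 0.29, 95% interval -1.47 to -0.20, limma adjusted p = 0.16). It was called without Balb/c ATRX-CT mouse 44, at -1.06 with limma adjusted p = 0.0493, and with weighted libraries, at -1.24 with limma adjusted p = 0.00356. Endothelial genes had a higher mean in Balb/c hosts for 9 of 10, with 1 called and a difference of 0.66 in their mean level. So did T cell genes for 10 of 10 (7 called) and keratinocyte genes for 7 of 10 (0 called). The mean was lower in Balb/c hosts for 10 of 12 macrophage genes (1 called) and 6 of 10 fibroblast genes (1 called). It was also lower for 7 of 10 osteoclast, 7 of 10 adipocyte and 8 of 10 skeletal muscle genes (0 called in each). All 4 Y-linked genes were called lower. The part of these lists in the Phex difference was not tested. Between ATRX-KD tumors, 0 of 5 members tested were called against 1.39% of 14669 genes, with Phex at -0.28 (SE 0.12, interval -0.56 to -0.0043, limma adjusted p = 0.295) and 2411 genes at an unadjusted p under 0.05. Groups were apart for 0 members in both, against 7.57% and 8.13% of all genes tested. For Phex, the exact two-sided permutation test gave p = 0.0635 in ATRX-CT tumors and p = 0.0794 in ATRX-KD tumors. Alpl was higher in Balb/c hosts by 0.19 (-0.02 to 0.41) in ATRX-CT and by 0.17 (-0.03 to 0.38) in ATRX-KD tumors. The scale understates changes of so low a gene: mean Alpl was 0.349 FPKM in Balb/c against 0.180 in NSG ATRX-CT tumors. In ATRX-KD tumors it was 0.413 against 0.246 FPKM. Runx2 was higher in Balb/c hosts by 0.21 (-0.36 to 0.79) and 0.29 (-0.22 to 0.80). Each of these intervals of Alpl and Runx2 includes 0.

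On the X chromosome, the gene nearest to Phex that was expressed was Sms (spermine synthase), with a mean of 20.6 FPKM. Both genes are on the minus strand, and the near edge of Sms lay 28.7 kb from Phex, on the side of the Phex transcription start. Sms differed by 0.24 in Balb/c mice (SE 0.17, limma adjusted p = 0.999) and by -0.29 in NSG mice (SE 0.19, limma adjusted p = 0.356). Ptchd1, on the other side, had a mean of 0.0894 FPKM.

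The genes of 6 bone lists were counted beside the members. In Balb/c mice 0 of their tested genes were called for the shRNA: 0 of 13 osteoblast transcription factors, 0 of 13 bone matrix genes, 0 of 10 mineral deposition genes, 0 of 9 osteocyte genes, 0 of 15 BMP genes and 0 of 16 Wnt genes. Their median log2 differences ran from -0.10 for mineral deposition to 0.011 for Wnt genes, beside -0.0032 over all genes. In NSG mice 1 gene of the 6 lists was called, Tnfrsf11b, which encodes osteoprotegerin, the decoy receptor that blocks osteoclast formation. It rose from 1.24 ± 0.588 FPKM in ATRX-CT to 4.08 ± 0.576 in ATRX-KD (SD, 5 tumors each), by 1.21 in log2 (FPKM + 1) (SE 0.17, limma adjusted p = 0.00705). In Balb/c mice Tnfrsf11b stood at 0.799 ± 0.495 and 2.86 ± 1.13 FPKM (SD, n = 4 each), a difference of 1.09 without overlap that was not called (SE 0.26, limma adjusted p = 0.474).

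Several NSG differences had an adjusted p under 0.05 but stayed under 2-fold on the log2 (FPKM + 1) scale. Of all 14654 genes tested in NSG mice, 994 had a limma adjusted p under 0.05 at any fold. Whether the bone lists held more such genes than other genes was not tested. Fkbp10, a chaperone of collagen, was 0.86 higher in ATRX-KD tumors (limma adjusted p = 0.0148), Sox4, a transcription factor of progenitors, 0.64 higher (0.0164) and Wnt10b, a bone-promoting Wnt ligand, 0.63 higher (0.0383). Wnt10b is low, so the scale understates its change: its mean was 1.26 ± 0.356 FPKM in ATRX-KD and 0.474 ± 0.335 in ATRX-CT tumors (SD, 5 tumors each). Fkbp10 was called with weighted libraries, at 1.07 (limma adjusted p = 0.000195), and Wnt10b with a pseudocount of 0.1, at 1.40 (limma adjusted p = 0.0456). In limma, the adjusted p of Wnt10b was above 0.05 with no filter (0.0573) and with all 4 groups in the fit (0.228), and reached 0.0992 without 1 tumor. Bmp4, an osteogenic ligand, was lower by -0.50 (limma adjusted p = 0.0263, and 0.161 with all 4 groups in the fit). Without NSG ATRX-KD mouse 30, the limma adjusted p was 0.0838 for Bmp4 and 0.0531 for Sox4. The bone matrix list had a median of 0.23 over 15 tested genes and the transcription factors a median of 0.13 over 12, beside -0.0014 over all genes.

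Between hosts, 1 gene of the lists was called in each comparison, Trpv4, a calcium channel of chondrocytes and bone cells in the mineral deposition list. It was higher in Balb/c hosts by 1.21 in ATRX-CT tumors (4.05 ± 0.622 against 1.22 ± 0.533 FPKM, SD, limma adjusted p = 0.0029) and by 1.28 in ATRX-KD tumors (3.62 ± 0.93 against 0.882 ± 0.164 FPKM, SD, limma adjusted p = 0.000418). Which cells of the tumors held the Trpv4 RNA was not tested. Lef1, a Wnt effector also made by T cells, was 0.58 higher in Balb/c ATRX-KD tumors (limma adjusted p = 0.000418), under 2-fold on this scale. It was called at 2.49 with a pseudocount of 0.1 (limma adjusted p = 9.49e-05). Col1a1 differed by 1.06 between hosts in ATRX-CT tumors and was not called (SE 0.31, limma adjusted p = 0.107). It was called without Balb/c ATRX-CT mouse 44, at 1.36 (limma adjusted p = 0.0191), and with weighted libraries, at 1.03 (limma adjusted p = 0.0108).

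Within groups, the expressed members varied more than most genes. The pooled SD of log2 (FPKM + 1) around the group means was 0.52 for Spp1, 0.41 for Runx2, 0.38 for Phex and 0.29 for Sparc, above that of 94.7%, 87.1%, 82.9% and 64.8% of the 12181 genes averaging 1 FPKM or more (median 0.25). Part of this moved with a property of the libraries. The tumors differed in how the level of all genes changed with transcript length, from -0.15 to 0.21 in log2 per doubling of length. Runx2 was highest in tumors with the steepest rise, mouse 56 (slope 0.213) and mouse 45 (slope 0.191), and over the 18 tumors, centred on group means, its Pearson r with the slope was 0.77, against -0.62 for Spp1, -0.68 for Sparc and -0.32 for Phex. With this trend removed from each library, the pooled SD was 0.32 for Runx2, 0.45 for Spp1, 0.29 for Sparc and 0.47 for Phex. What set the slope was not tested.

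In the Balb/c tumors Spp1 and Runx2 went in opposite directions. Their Pearson r over the 18 tumors, centred on group means, was -0.69 (Spearman rho -0.74), -0.64 without mice 44 and 56, whose group-centred Runx2 lay farthest from the median, and -0.58 with the length trend removed from each library. No r was taken within each host, and the opposition was not plain in NSG mice. In NSG ATRX-CT tumors, mouse 5 had the highest Runx2 (7.37 FPKM) and an Spp1 of 337 FPKM, in a group of 222 to 406. In NSG ATRX-KD tumors, mouse 27 had the highest Runx2 (5.81 FPKM) and an Spp1 of 333 FPKM, in a group of 235 to 447. The other 5 pairs among Runx2, Spp1, Sparc and Phex had an r of -0.38 to 0.28. These 6 values are descriptions, since both genes of a pair share a library and its length trend.

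**Figure D5:**
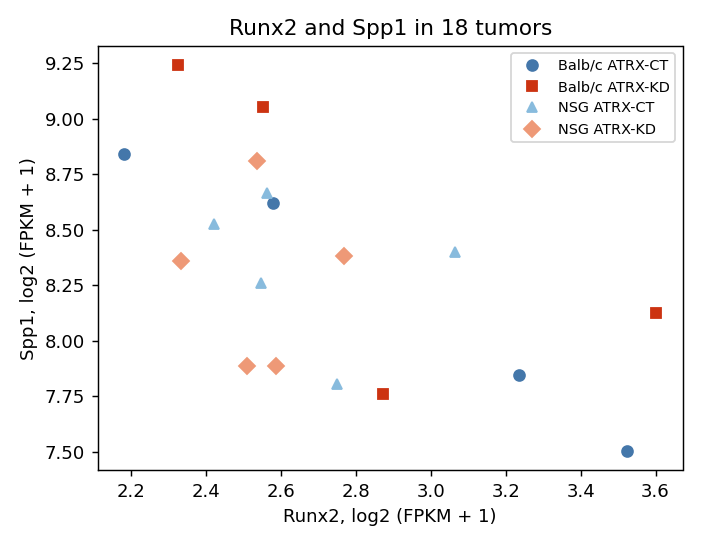
Spp1 against Runx2, both in log2 (FPKM + 1), with 1 point per tumor and the 4 groups by color and shape. The 3 tumors with the highest Runx2 (3.24, 3.53 and 3.60), all from Balb/c mice, have Spp1 of 7.85, 7.50 and 8.13. The 2 highest Spp1 values, 9.05 and 9.24, are Balb/c ATRX-KD tumors with Runx2 of 2.55 and 2.33.

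Genes whose levels followed each expressed member most closely, by Pearson r of group-centred log2 (FPKM + 1) over 18 tumors among 12180 other genes, were different for each member. They were Nlgn2 (0.97) and Sec24a (0.94) for Runx2, Kng2 (0.93), Nupr1 (0.91) and Il13ra2 (0.90) for Spp1, Yy1 (0.94), Lysmd2 (0.90) and Cdc23 (0.90) for Sparc, and Nmrk1, Zfp52 and Zfand4 (each 0.85) for Phex. With the length trend removed these values ran from 0.76 to 0.95.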

How the data were processed

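RNA of 18 K7M2 tumors was sequenced with a stranded kit after ribosomal depletion. Reads were aligned to mm10 by STAR 2.6.0c, filtered for quality and duplicates, and quantified over RefSeq genes by Cufflinks 2.2.1, and the authors deposited the result as log2 (FPKM + 1) for 20878 genes and 92 spike-ins (left out here). The authors' differential analysis used DESeq. Groups came from the sample labels.

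Depth was estimated from the spacing of low FPKM values in 13570 single-transcript genes of 600 to 6000 nt, with 160-nt fragments. A share of 38.1% to 50.6% of those values came within 0.1 of whole fragments, so no count test was run. Floors are 3 fragments (counting error only).

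Each comparison was fitted on its own groups in limma 3.58.1 (R 4.3.3, lmFit, eBayes with trend), after dropping genes that averaged under 0.1 FPKM, with Benjamini-Hochberg adjustment over all genes left. Percentages called cover both directions. The steps were tested on artificial data, with 200 genes raised by 2 in log2. The share of them called was 91% for the shRNA in Balb/c and 100% in NSG mice. Between hosts it was 97.5% in ATRX-CT and 98% in ATRX-KD tumors. Smaller changes and genes of low level were not tried. P-values measure the spread between mice. The sample labels name no separate transductions, so an effect of the Atrx shRNA and a difference between the transduced cell lines cannot be told apart.

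Alternatives were a pseudocount of 0.1, a filter at 1 FPKM or none, median-ratio scaling, removal of the length trend, library weights with a robust prior, no fold threshold, all 4 groups in 1 fit, and each tumor left out. Spread and likeness without the length trend, and correlations without 2 tumors, were added after seeing the data. Named genes were the members, Atrx, the called genes of each bone list or else its 2 largest differences (the text gives some of them), and the 3 genes most like each member averaging 1 FPKM or more, of which 1 is not reported here. Dlx6 and Cnmd were not analysed here. The members and lists were chosen with earlier results of these data known. Figures were drawn in Python 3.11.15.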

Additional observations from a re-analysis of the deposited data

Results flagged for a closer look

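Of 37 groups of tumors checked (members and Atrx), 5 held a tumor far from the rest by Dixon's test, where chance gives about 1 in 20, or 1.85. Of these, 4 were single tumors above a group listed at 0, each at or below 3 estimated fragments. In such a group any value above 0 is flagged, so the chance rate does not apply to these 4. Bglap was at 0.4212 in log2 (FPKM + 1) in Balb/c ATRX-KD mouse 60 and at 0.2053 in NSG ATRX-KD mouse 29. Ibsp was at 0.0287 in Balb/c ATRX-CT mouse 43, and Dmp1 at 0.0185 in Balb/c ATRX-KD mouse 56. The fifth was Atrx in NSG ATRX-KD mouse 27, at 4.1191, where the other 4 tumors of that group lay between 3.2357 and 3.3048. Without that tumor the NSG difference of Atrx was -0.91 (limma adjusted p = 0.0268).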

How the results depend on the processing

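Of 744 values of the members, Atrx and the other tested genes named above under the alternatives, 709 kept their direction and side of the threshold, 7 passed it only there and 28, all of members or Atrx, changed sign, and the cause was not tested. Tnfrsf11b in NSG mice and Trpv4 between hosts stayed called under every alternative run. With library weights, the count of genes called became 15 in Balb/c mice (main 1), 201 in NSG mice (main 68) and 195 for the difference between hosts (main 0), and 1 member, Phex, was called between hosts in ATRX-CT tumors. With weights, Alpl changed to -0.001 and Sparc to 0.1548 in Balb/c mice, and between hosts in ATRX-CT tumors Runx2 changed to -0.0437 and Spp1 to 0.2209. The Balb/c count was 9 with all 4 groups in the fit and 0 with the filter at 1 FPKM, no filter or the length trend removed. With the length trend removed, Bglap between hosts in ATRX-CT tumors changed to 0.0113. A pseudocount of 0.1 gave 226 genes in NSG mice, 416 between hosts in ATRX-CT tumors (main 212) and 424 in ATRX-KD tumors (main 204). No fold threshold gave 994, 472 and 534. Leaving out 1 tumor gave 0 to 2 genes in Balb/c mice, 27 to 124 in NSG mice, 0 to 1 for the difference between hosts, and 0 to 1 members between hosts in ATRX-CT tumors. Over the same fits, differences ran from -0.2977 to 0.1717 for Runx2, -0.017 to 0.1351 for Alpl and -0.2301 to 0.0864 for Sparc in Balb/c mice, and from -0.2039 to 0.0273 for Spp1 in NSG mice. Between hosts in ATRX-CT tumors they ran from -0.0031 to 0.4445 for Runx2, -0.3425 to 0.1038 for Spp1 and -0.2459 to 0.1745 for Atrx. The differences between host effects ran from -0.1756 to 0.2937 for Runx2 and -0.0992 to 0.0529 for Alpl. No paired analysis was possible because no mouse number is shared between groups. Depth limits Sp7, Bglap, Ibsp and Dmp1, which were near or under the floor of 3 fragments.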
